A study of Mus musculus with 12 samples.

Results

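2 kinds of stem cell line able to grow in the same medium were compared here by their transcripts: germline stem cell-like cells (GSCLCs) obtained from reconstituted testes, and germline stem cells (GSCs) obtained from postnatal testes. The GSCLC lines considered are GSCLC_1 and GSCLC_4, whose reconstituted testes were kept at 34°C for 3 weeks, called condition 1. The GSC lines are GSC_1 and GSC_2, from separate testes of mice at postnatal day 7. All 4 lines carried the AcrAct_EGFP reporter on a C57BL/6 x 129/SvJcl background and grew in StemPro-34 SFM with 1% FBS, GDNF, bFGF, LIF and EGF. Every line was sampled as 2 culture replicates, so the comparison holds 8 of the 12 libraries and 4 of the 6 lines of the study. The other 2 lines, GSCLC_2 and GSCLC_3, are of condition 2, in which the testes spent 2 weeks at 37°C before 1 week at 34°C. They served to estimate the spread and for one contrast. The study's title places the origin of the GSCLCs in mouse pluripotent stem cells. A line is 1 derivation, the labels do not say whether it is 1 clone, and all lines of a kind share their source, so that the effects of the cells' origin, of the reconstituted testis and of the culture history cannot be told apart.

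Spermatogonial stem cells sustain sperm production by dividing without leaving the stem cell state. In culture they depend on GDNF, which binds the co-receptor GFRA1 and the kinase RET and raises a set of transcription factors, among them Etv5, Bcl6b, Lhx1, Id4 and the Egr genes; FGF acts beside it through the ERK pathway. Genes such as Dazl and Ddx4 mark germ cells as a whole, while Kit and Stra8 rise when spermatogonia leave the stem cell state and answer retinoic acid.

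The libraries were made from 3′ ends of amplified cDNA, and levels are deposited as RPM, a gene's reads scaled to a fixed total per library. The even steps of the low values imply 3031706 to 4644182 reads per library over the 12 libraries, at which 3 reads amount to 0.646 to 0.99 RPM. That floor covers counting error only, since amplified reads are not independent molecules. Of 26219 genes, 11542 had at least 5 RPM in at least 2 of the 8 libraries and were tested. A gene could reach this level through 1 kind of line alone, in which case the sign of its difference is not a separate result. Levels below are given per library in RPM, first replicate 1 and then replicate 2 of each line, or as means ± SD over the 2 lines of a kind. Differences are on the log2(RPM + 1) scale, on which changes of low genes come out too small, ± SE from limma, with a Benjamini-Hochberg adjusted p over all tested genes and 0.05 as the threshold.

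The first question was how many genes set the condition 1 lines apart from the GSC lines. In the condition 1 lines 36 genes were higher, 0.312% of those tested, and 52 were lower, 0.451% of those tested. Of these, 31 of the higher and 44 of the lower genes differed by more than 2-fold. The median difference over all tested genes was 0.03, and 1618 genes had an unadjusted p under 0.05. For all 88 genes the 4 condition 1 libraries lay on one side of the 4 GSC libraries. The 88 genes were called from these same libraries, so their separation follows largely from the call and adds no support. Among all tested genes, 974 had all 4 condition 1 libraries above the GSC libraries (8.44%) and 810 had all 4 below (7.02%). Across genes, Pearson's r between a condition 1 and a GSC library averaged 0.939, between libraries of the 2 condition 1 lines 0.954 and between libraries of the 2 GSC lines 0.967. Genes are not independent replicates, and these values are a description.

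**Figure D1:**
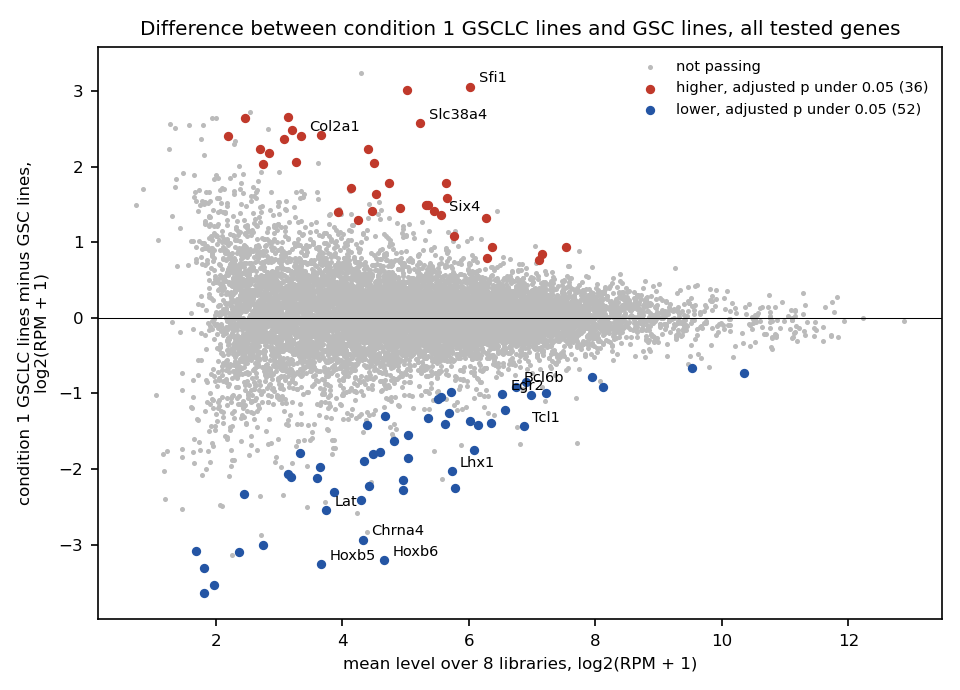
Each point is 1 of 11542 tested genes, with the mean level over the 8 libraries on the x axis and the difference of condition 1 GSCLC lines minus GSC lines on the y axis, both in log2(RPM + 1). The 36 genes that were higher (red) and the 52 that were lower (blue) reach differences of 3.06 for Sfi1 and -3.26 for Hoxb5 among the genes labelled.

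The count of genes rests on few lines. Among the 45 of these genes that are chosen by the rule given with the methods, 19 passed whichever single library was left out, and 21 of 45 missed the threshold without the second library of GSCLC_4. Leaving out a whole line cost more: 25 of 45 missed it without GSCLC_1, 40 without GSCLC_4, 40 without GSC_1 and 41 without GSC_2. Over all genes, 11 were higher and 20 lower without the second library of GSCLC_4, 56 and 85 without the second of GSC_1, 19 and 26 without GSCLC_1, 3 and 2 without GSCLC_4, 5 and 0 without GSC_1, and 4 and 0 without GSC_2, a remaining line being assumed to vary like the others. Sfi1 passed in all 28 alternatives tried.

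Germ cell core genes were expressed at high levels in both kinds of line, and none of those tested passed the threshold. Dazl, which encodes a translational regulator that binds RNA, averaged 1468 ± 95.6 RPM in condition 1 lines and 1293 ± 21.7 RPM in GSC lines, a difference of 0.18 ± 0.11 (adjusted p = 0.506). For Ddx4, a germ cell RNA helicase, the means were 525 ± 33.5 RPM in condition 1 lines and 478 ± 78.6 RPM in GSC lines (0.15 ± 0.15, adjusted p = 0.677). None of the 22 tested genes of the germ cell core, of the 22 of the piRNA pathway, which silences transposons in germ cells, and of the 27 of meiotic prophase passed the threshold, against 88 of all 11542 tested genes. Their median differences were 0.03, 0.11 and 0.13, beside 0.03 over all tested genes. Single members stood lower without passing, such as Tdrd9, a helicase of the piRNA pathway, with 8.84 and 3.78 RPM in GSCLC_1 and 4.26 and 3.3 RPM in GSCLC_4, against 32.3 and 13.8 RPM in GSC_1 and 40.1 and 43.6 RPM in GSC_2 (-2.43 ± 0.62, adjusted p = 0.105). Its 4 condition 1 libraries lay below the 4 GSC libraries, as in 7.02% of all tested genes, and the difference did not pass.

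The receptors through which the medium acts did not pass either. Gfra1 averaged 329 ± 48.2 RPM in condition 1 lines and 331 ± 27.2 RPM in GSC lines (-0.01 ± 0.15, adjusted p = 0.98). Of its 3 annotated 3′ ends, 1 shares sequence with another gene. Ret averaged 255 ± 2.96 RPM in condition 1 lines and 278 ± 3.93 RPM in GSC lines (adjusted p = 0.711). Etv5, a GDNF-responsive factor required for stem cell maintenance, had 280 ± 27.7 RPM in condition 1 lines and 281 ± 10.6 RPM in GSC lines (-0.01 ± 0.13, adjusted p = 0.987). Zbtb16 (83.9 ± 0.108 RPM in condition 1 lines, 75.1 ± 5.56 RPM in GSC lines), Id4 (76.1 ± 13.1 RPM in condition 1 lines, 103 ± 23.5 RPM in GSC lines) and Nanos2 (10.9 ± 3.94 RPM in condition 1 lines, 13.2 ± 1.33 RPM in GSC lines), all markers of undifferentiated spermatogonia, also stayed short of the threshold, with adjusted p of 0.692, 0.35 and 0.587. None of the 12 tested receptors of the medium's factors passed; at the share called over all tested genes, 0.312% higher and 0.451% lower, a list of this length would seldom hold one.

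Within the list for stem cell self-renewal the changes went one way. Of the 39 genes 35 were tested, and 4 fell in condition 1 lines and none rose, where 0.451% of all tested genes fell and 0.312% rose. There were 27 differences below 0 and 8 above, with a median of -0.36 beside 0.03 over all tested genes. In bulk cultures fewer cells of a type and less RNA per cell cannot be told apart. The list was chosen with earlier results of these data known, so its direction is a description.

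Lhx1, a LIM homeobox factor raised by GDNF in cultured mouse spermatogonia, had 34.2 and 37.4 RPM in GSCLC_1 and 19.8 and 15.8 RPM in GSCLC_4, against 110 and 103 RPM in GSC_1 and 104 and 108 RPM in GSC_2. Every condition 1 library was far below the narrow range of the GSC libraries, and GSCLC_4 was the lower line. The difference was -2.03 ± 0.29 (adjusted p = 0.0134), and it passed whichever library was left out. Bcl6b, a transcriptional repressor raised by GDNF, had 55.6 and 102 RPM in GSCLC_1 and 73.4 and 84.8 RPM in GSCLC_4, against 194 and 130 RPM in GSC_1 and 112 and 159 RPM in GSC_2 (-0.91 ± 0.16, adjusted p = 0.0302). Here the highest condition 1 library came close to the lowest GSC library. Egr2, a zinc-finger factor, averaged 65.6 ± 10.5 RPM in condition 1 lines and 132 ± 9.98 RPM in GSC lines (-1.01 ± 0.17, adjusted p = 0.0302). Tcl1, a co-activator of AKT kinase, fell to 71.3 ± 17.9 RPM in condition 1 lines, against 195 ± 47 RPM in GSC lines (-1.44 ± 0.27, adjusted p = 0.0431).

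The calls of 3 of these genes depended on single libraries, and Bcl6b, Egr2 and Tcl1 passed in 12, 13 and 17 of the 28 alternatives. Without the first library of GSC_1, the second of GSC_2, the first of GSCLC_1 or the second of GSCLC_4, the adjusted p was 0.0656, 0.0989, 0.122 or 0.0584 for Bcl6b and 0.0633, 0.0627, 0.125 or 0.0617 for Egr2. For Tcl1 it was 0.0524, 0.055 and 0.0679 without the first or second library of GSCLC_1 or the second of GSCLC_4. On single libraries with line as a correlated block it was 0.0877 for Bcl6b. Over all alternatives the adjusted p ran from 0.0101 to 0.328 for Bcl6b, from 0.00864 to 0.309 for Egr2 and from 0.000413 to 0.418 for Tcl1, and the difference stayed below 0 in each.

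Other factors of the same list lay apart without passing. Pou3f1, a POU factor raised by GDNF, had 56.2 and 40 RPM in GSCLC_1 and 23.5 and 29.4 RPM in GSCLC_4, against 88.7 and 76.9 RPM in GSC_1 and 63.8 and 94.7 RPM in GSC_2 (adjusted p = 0.0683). Eomes, a T-box factor found in a subset of undifferentiated spermatogonia, was at 14.3 to 17.5 RPM in the 4 condition 1 libraries and 37.4 to 49.1 RPM in the 4 GSC libraries (adjusted p = 0.117). For T, another T-box factor, GSCLC_1 had 17.1 and 12.3 RPM and GSCLC_4 4.26 and 1.98 RPM, against 99.7 and 89.4 RPM in GSC_1 and 27.6 and 37.3 RPM in GSC_2 (adjusted p = 0.0862). In these 3 genes, chosen after their values were seen, the libraries of the 2 kinds of line did not overlap. All 4 condition 1 libraries were below the GSC libraries in 7.02% of all tested genes. For T the lines of 1 kind also lay apart from each other.

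Genes that follow ERK signalling had differences on both sides of 0. Of 20 tested genes of ERK feedback and targets, 1 fell and none rose, where 0.451% of all tested genes fell and 0.312% rose. There were 12 differences below 0 and 8 above, with a median of -0.36 beside 0.03 over all tested genes. Egr1, an immediate early factor, had 78.2 and 139 RPM in GSCLC_1 and 100 and 109 RPM in GSCLC_4, against 205 and 196 RPM in GSC_1 and 205 and 234 RPM in GSC_2. Its difference was -1.0 ± 0.15 (adjusted p = 0.0183), and it missed the threshold without the first library of GSCLC_1 (adjusted p = 0.0925; 0.00358 to 0.28 over all alternatives). The Sprouty genes, feedback inhibitors of receptor kinases, had differences of opposite sign that did not pass. Spry2 had 53.5 ± 24.1 RPM in condition 1 lines and 20.9 ± 1.99 RPM in GSC lines (1.24 ± 0.30, adjusted p = 0.0904). Spry4 had 37.3 ± 11 RPM in condition 1 lines and 86.6 ± 16.5 RPM in GSC lines (-1.22 ± 0.30, adjusted p = 0.0925).

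**Figure D2:**
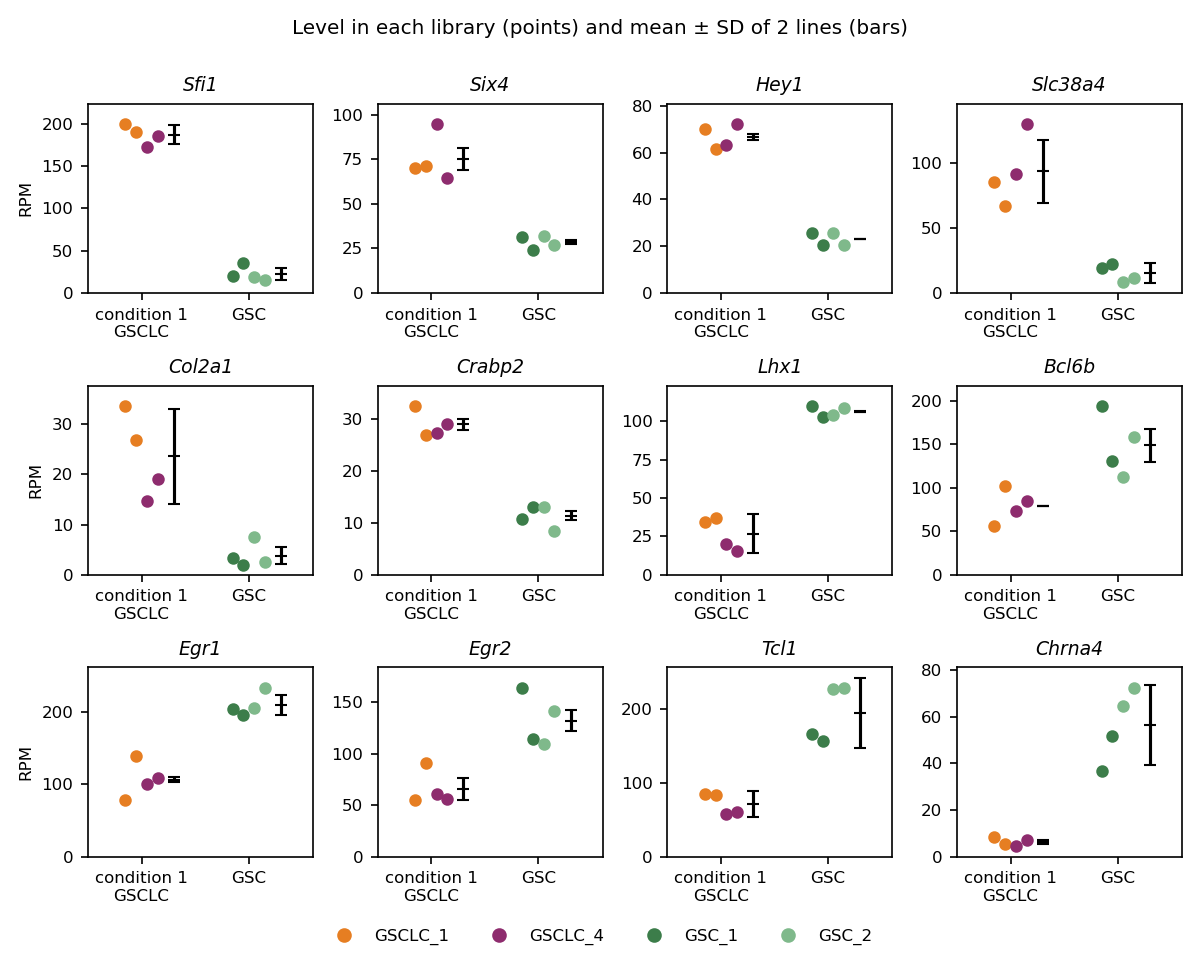
Levels in RPM of 12 genes in the 4 condition 1 GSCLC libraries and the 4 GSC libraries, 1 point per library coloured by line, with a bar for the mean ± SD of the 2 lines of a kind beside them. No gene shown has a condition 1 library within the range of the GSC libraries; Bcl6b comes closest, with 102 RPM in a condition 1 library and 112 RPM in a GSC library.

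The genes with the lowest relative levels in condition 1 lines included the Hoxb cluster. Hox genes encode homeobox factors that give cells along the body axis their position, and they lie in 4 clusters, of which the Hoxb cluster is on mouse chromosome 11. All 10 tested Hoxb genes had a difference below 0, 7 fell and none rose, where 0.451% of all tested genes fell and 0.312% rose. The median was -2.28, beside 0.03 over all tested genes. Hoxb1 and Hoxb5 reached the level for testing only through GSC libraries, so their signs add nothing to these counts. The summed level of the 10 Hoxb genes was 97 to 133 RPM in condition 1 libraries and 402 to 510 RPM in GSC libraries.

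Hoxb6 had 9.99 and 17.5 RPM in GSCLC_1 and 6.26 and 2.31 RPM in GSCLC_4, against 86.1 and 63.1 RPM in GSC_1 and 73.4 and 83.4 RPM in GSC_2 (-3.20 ± 0.41, adjusted p = 0.0102). Hoxb5 had 2.28 and 10.4 RPM in GSCLC_1 and 2.25 and 1.32 RPM in GSCLC_4, against 43.4 and 30.8 RPM in GSC_1 and 36.2 and 44.9 RPM in GSC_2 (-3.26 ± 0.45, adjusted p = 0.0134). In both genes the GSC libraries were at least 30.8 RPM and no condition 1 library passed 17.5 RPM. Hoxb8 (9.44 ± 4.2 RPM in condition 1 lines, 45.7 ± 1.65 RPM in GSC lines) and Hoxb9 (14.6 ± 5.64 RPM in condition 1 lines, 65.1 ± 5.7 RPM in GSC lines) fell by 2.23 and 2.15 on the log2 scale. Hoxb7 was the highest member in both kinds of line, at 42.8 ± 1.61 RPM in condition 1 lines and 115 ± 4.5 RPM in GSC lines (-1.41 ± 0.25, adjusted p = 0.0377). Hoxb1 had 1.78 ± 0.138 RPM in condition 1 lines and 11.3 ± 0.0978 RPM in GSC lines (-2.33 ± 0.40, adjusted p = 0.0302). Its libraries were at 1.71 and 1.65 RPM in GSCLC_1 and 3.76 and 0 RPM in GSCLC_4, so it reached the level for testing only in GSC libraries. Hoxb2 averaged 7.63 ± 0.172 RPM in condition 1 lines and 45.4 ± 4.45 RPM in GSC lines, but its annotated 3′ end shares sequence with an antisense transcript, Hoxb3os, so its reads are uncertain.

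Hoxb3 and Hoxb4, with adjusted p of 0.0571 and 0.0862, lay below the GSC libraries in all 4 condition 1 libraries without passing. The same held in 7.02% of all tested genes. Hoxb13, which stands apart from the rest of the cluster at its 5′ end, was at 17.7 ± 2.35 RPM in condition 1 lines and 24.0 ± 0.231 RPM in GSC lines, and its libraries overlapped (adjusted p = 0.489). The calls were recomputed without each library for all of these but Hoxb7, and 2 depended on single libraries. Without the first library of GSCLC_1 the adjusted p of Hoxb5 was 0.0751 (0.000344 to 0.233 over all alternatives), and without the first of GSC_1 or the second of GSCLC_4 that of Hoxb1 was 0.0633 or 0.133 (0.0101 to 0.343).

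**Figure D3:**
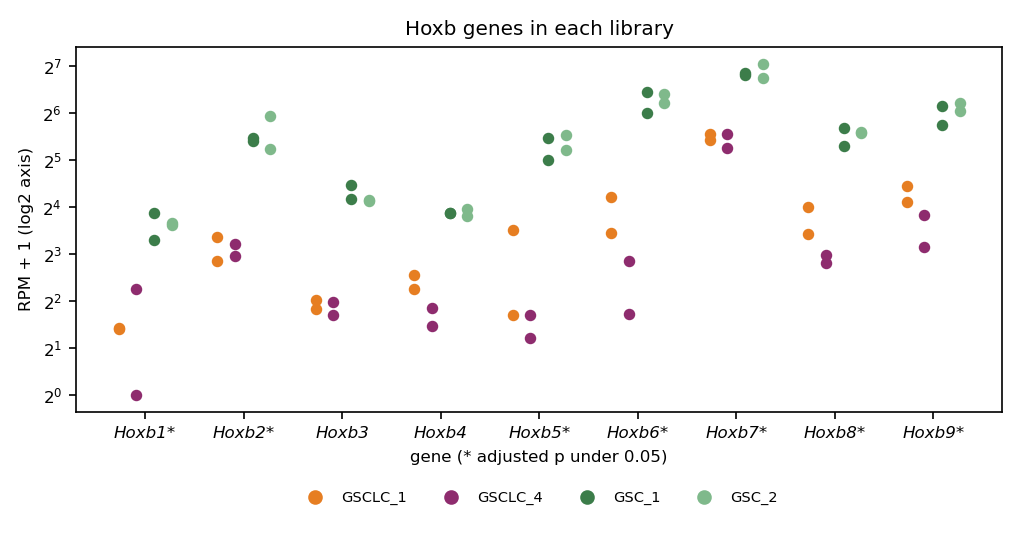
RPM + 1 on a log2 axis of 9 Hoxb genes, with 1 point per library coloured by line and the condition 1 lines left of the GSC lines; an asterisk marks an adjusted p under 0.05. In every gene shown the 4 condition 1 libraries lie below the 4 GSC libraries, as in 7.02% of all tested genes. Hoxb13, whose libraries overlapped, is not shown. Hoxb6 is at 2.31 to 17.5 RPM in condition 1 libraries and 63.1 to 86.1 RPM in GSC libraries.

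In the other Hox clusters no tested gene passed, and no Hoxd gene reached the level for testing. Of 11 Hoxa genes 4 were tested, each of which reached that level only in condition 1 libraries, so the sign of their differences is not a result. All 11 summed to 14 to 66.3 RPM in condition 1 libraries and 4.59 to 10.4 RPM in GSC libraries. Hoxa10 had 4.28 and 6.38 RPM in GSCLC_1 and 15.8 and 23.7 RPM in GSCLC_4, against 3.91 and 1.51 RPM in GSC_1 and 2.95 and 2.04 RPM in GSC_2 (adjusted p = 0.48). Most of that difference lay in GSCLC_4, whose Hoxa10 and Hoxa13 were higher than in GSCLC_1 (adjusted p = 0.0453 and 0.0469 between these lines).

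Promoter sequences are shown for 4 of the genes that changed, 3 that fell and 1 that rose, because they include Hoxb1 and Hoxb8, which belong to 1 cluster. They are RefSeq windows of GRCm38.p6 of 300 bases around an annotated transcript start, 5′ to 3′ on the gene's strand, with CG dinucleotides in capitals. CG dinucleotides are the sites of DNA methylation.
Hoxb1, chr11:96365508-96365807, plus strand: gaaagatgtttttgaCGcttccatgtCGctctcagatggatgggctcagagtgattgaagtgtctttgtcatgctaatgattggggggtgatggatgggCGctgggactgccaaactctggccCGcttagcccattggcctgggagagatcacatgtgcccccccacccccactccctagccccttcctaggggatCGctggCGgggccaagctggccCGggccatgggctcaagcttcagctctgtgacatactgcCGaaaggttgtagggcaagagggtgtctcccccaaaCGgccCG
Hoxb8, chr11:96281655-96281954, plus strand: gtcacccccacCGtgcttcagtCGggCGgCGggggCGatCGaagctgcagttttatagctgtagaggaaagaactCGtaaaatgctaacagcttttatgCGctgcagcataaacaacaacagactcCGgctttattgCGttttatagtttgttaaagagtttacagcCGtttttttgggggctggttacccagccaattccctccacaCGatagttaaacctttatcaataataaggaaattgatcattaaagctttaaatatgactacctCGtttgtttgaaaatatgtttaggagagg
Lhx1, chr11:84525485-84525784, minus strand: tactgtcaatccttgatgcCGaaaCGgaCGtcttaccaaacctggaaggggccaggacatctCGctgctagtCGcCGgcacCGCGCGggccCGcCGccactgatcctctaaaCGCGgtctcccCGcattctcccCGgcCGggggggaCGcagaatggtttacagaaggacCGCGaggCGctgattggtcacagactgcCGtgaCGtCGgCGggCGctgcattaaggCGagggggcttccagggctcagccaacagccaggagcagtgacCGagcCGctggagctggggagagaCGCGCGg
Six4, chr12:73113196-73113495, minus strand: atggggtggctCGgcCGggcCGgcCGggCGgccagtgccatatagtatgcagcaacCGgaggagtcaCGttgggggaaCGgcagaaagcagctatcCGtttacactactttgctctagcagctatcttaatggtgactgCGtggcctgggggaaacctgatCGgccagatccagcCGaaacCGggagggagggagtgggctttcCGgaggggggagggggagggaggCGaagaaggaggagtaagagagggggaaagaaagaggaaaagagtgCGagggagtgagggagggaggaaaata

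The windows of Hoxb1, Hoxb8, Lhx1 and Six4 held 10, 13, 31 and 16 CG dinucleotides. Six4 has 2 windows in the table, and the first is shown; the windows of Six4 and Hoxb8 lie inside the annotated span of the gene. A window was found for 38 of the 52 genes that fell, 25 of the 36 that rose and 8990 of all 11542 tested, taking the first of a gene. Windows of chromosome 18 were left out, so genes there count as having none. The median number of CG dinucleotides was 15 among the genes that fell, 16 among those that rose and 22 over all tested genes. The motif TATAAA on either strand was in the Hoxb8 window and in 6.4% of all windows of tested genes. The motif GGGCGG on either strand was in the windows of Hoxb8 and Six4 and in 67.7% of all. These are matches of letters in the window and do not show a bound site.

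The genes that rose included Six4, which encodes a homeobox factor of organ development, in the kidney, ear and muscle among others. Six4 (chr12:73099609-73114031) had 70.2 and 71.4 RPM in GSCLC_1 and 94.7 and 64.7 RPM in GSCLC_4, against 31.6 and 24.3 RPM in GSC_1 and 32 and 26.8 RPM in GSC_2 (1.35 ± 0.18, adjusted p = 0.0131). All 4 condition 1 libraries were above the 4 GSC libraries. Six2, a related gene, was at 9.98 ± 2.67 RPM in condition 1 lines and 1.4 ± 1.08 RPM in GSC lines, without overlap of libraries, and did not pass (adjusted p = 0.0642). All 4 condition 1 libraries were above the GSC libraries in 8.44% of all tested genes.

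Of 51 developmental factors 19 reached the level for testing, of which 2 rose, Six4 among them, and none fell. The shares over all tested genes were 0.312% and 0.451%. Homeobox factors outside this list did fall, among them Lhx1, Prrx2 and 7 Hoxb genes. The list was drawn up after earlier results on these data were known.

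Sfi1 (chr11:3131850-3203347), a centrin-binding protein of the spindle pole, showed the largest rise of the named genes, with 200 and 191 RPM in GSCLC_1 and 173 and 185 RPM in GSCLC_4, against 19.9 and 35.7 RPM in GSC_1 and 19 and 15.8 RPM in GSC_2 (3.06 ± 0.25, adjusted p = 0.00105). Slc38a4, a transporter of neutral amino acids expressed from the paternal allele in mouse placenta, had 85.9 and 66.9 RPM in GSCLC_1 and 91.9 and 130 RPM in GSCLC_4, against 19.6 and 22.6 RPM in GSC_1 and 8.62 and 11.2 RPM in GSC_2 (2.58 ± 0.32, adjusted p = 0.0102). It was the only 1 of 19 tested paternally expressed imprinted genes to pass, and none of 17 maternally expressed ones did. Over all tested genes 0.312% rose and 0.451% fell, so these counts do not set the 2 groups of imprinted genes apart. Crym, a thyroid hormone-binding protein, was at 21.6 ± 3.69 RPM in condition 1 lines and 2.82 ± 1.67 RPM in GSC lines (2.66 ± 0.33, adjusted p = 0.0102). These 3 genes passed whichever single library was left out.

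Other genes that rose were single members of their lists or, like Abl1 and Col2a1, of no list. Since 0.312% of all tested genes rose, 1 call describes that gene and not its list. Abl1, a tyrosine kinase, had 91.6 ± 11.6 RPM in condition 1 lines and 26.3 ± 6.19 RPM in GSC lines (1.78 ± 0.20, adjusted p = 0.00591). Hey1, a repressor downstream of Notch, was at 61.5 to 72.2 RPM in condition 1 libraries and 20.4 to 25.8 RPM in GSC libraries (1.5 ± 0.25, adjusted p = 0.0302), the 1 of 13 tested Notch and hedgehog genes to pass. Tcf7l1, a TCF factor that represses Wnt targets, was the 1 of 16 tested Wnt genes to pass, at 35.5 ± 5.84 RPM in condition 1 lines and 12.9 ± 0.726 RPM in GSC lines. Cdk6, a kinase of the G1 phase, averaged 14.6 ± 1.1 RPM in condition 1 lines and 2.44 ± 0.605 RPM in GSC lines, the 1 of 21 tested G1 genes to pass. It reached the level for testing only in condition 1 libraries. Col2a1, the main collagen of cartilage, had 23.6 ± 9.44 RPM in condition 1 lines and 3.84 ± 1.76 RPM in GSC lines (2.41 ± 0.36, adjusted p = 0.0183). Lamb1, a laminin chain, was the 1 member to pass in a list of collagens, laminins and integrins that does not hold Col2a1. Of the 24 tested members of that list 18 had a difference below 0, with a median of -0.51. Lamb1 had 126 ± 50.2 RPM in condition 1 lines and 48.8 ± 1.43 RPM in GSC lines.

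Crabp2, a carrier of retinoic acid, was the 1 of 20 tested genes of spermatogonial differentiation to rise, where 0.312% of all tested genes rose. It had 26.9 to 32.5 RPM in condition 1 libraries and 8.42 to 13.1 RPM in GSC libraries (1.29 ± 0.23, adjusted p = 0.0377). Kit, the receptor that marks differentiating spermatogonia, was at 39.7 ± 2.85 RPM in condition 1 lines and 35.2 ± 6.25 RPM in GSC lines, and Stra8, induced by retinoic acid, at 17.9 ± 1.42 RPM in condition 1 lines and 12.5 ± 1.06 RPM in GSC lines (adjusted p = 0.748 and 0.515). The libraries of both genes overlapped between the kinds of line. Sohlh1, a factor of early differentiation, had 17.1 and 17 RPM in GSCLC_1 and 2.25 and 9.9 RPM in GSCLC_4, against 65.8 and 27.6 RPM in GSC_1 and 52.9 and 45.4 RPM in GSC_2, and did not pass (adjusted p = 0.319).

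The remaining named genes that rose had these levels. Sall2, a zinc-finger factor, averaged 45.6 ± 7.51 RPM in condition 1 lines and 9.58 ± 5.4 RPM in GSC lines, and Tpp1, a lysosomal peptidase, 46.4 ± 12.5 RPM in condition 1 lines and 10.2 ± 0.405 RPM in GSC lines. Spsb4, an adaptor of a ubiquitin ligase, was at 21.3 ± 3.67 RPM in condition 1 lines and 3.3 ± 0.0839 RPM in GSC lines. Blnk, an adaptor known from B cells, had 18.9 ± 3.15 RPM in condition 1 lines and 3.18 ± 2.54 RPM in GSC lines. All 4 rose by more than 2 on the log2 scale. Vstm2b, Prelid2 and Dusp16, a phosphatase of MAP kinases, rose by 1.78, 2.41 and 1.72.

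Single libraries decided the calls of 10 of the genes that rose. The second library of GSCLC_4 mattered in all 10: without it the adjusted p was 0.0578 for Col2a1, 0.0572 for Sall2, 0.0617 for Hey1, Cdk6 and Blnk, 0.0637 for Tcf7l1, 0.0658 for Crabp2 and Lamb1, 0.069 for Prelid2 and 0.0695 for Dusp16. Without the first library of GSCLC_1 it was 0.0568 for Crabp2, 0.082 for Prelid2 and 0.0862 for Dusp16, and without the second 0.0809 for Blnk and 0.0507 for Lamb1. Without the first library of GSC_1 it was 0.0667 for Crabp2 and Lamb1, 0.0656 for Tcf7l1 and 0.0621 for Dusp16, and without the second of GSC_2 0.0649 for Col2a1, 0.0653 for Crabp2, 0.0667 for Lamb1 and 0.0627 for Dusp16. Over all alternatives the adjusted p of these 10 genes ran from 0.000276 to 0.4.

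Genes outside the Hoxb and self-renewal lists also fell. Chrna4, a subunit of nicotinic acetylcholine receptors, had 8.56 and 5.44 RPM in GSCLC_1 and 4.76 and 6.93 RPM in GSCLC_4, against 36.8 and 51.9 RPM in GSC_1 and 64.5 and 72.5 RPM in GSC_2 (-2.94 ± 0.34, adjusted p = 0.00701). It was the 1 of 11 tested neuronal channel and receptor genes to pass, where 0.451% of all tested genes fell and 0.312% rose. Sez6, a neuronal membrane protein, was at 17.5 to 30.3 RPM in condition 1 libraries and 104 to 144 RPM in GSC libraries (-2.25 ± 0.22, adjusted p = 0.00334). Prrx2, a homeobox factor of mesenchyme, was at 13.8 ± 3.36 RPM in condition 1 lines and 68.2 ± 4.5 RPM in GSC lines (-2.28 ± 0.25, adjusted p = 0.00591). These 3 genes passed whichever library was left out.

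Lat, the linker of T cell receptor signalling, fell to 5.37 ± 1.17 RPM in condition 1 lines, against 31.8 ± 2.3 RPM in GSC lines (-2.55 ± 0.35, adjusted p = 0.0131), and Ramp2, which modifies peptide hormone receptors, to 5.97 ± 0.673 RPM in condition 1 lines, against 32.2 ± 6.18 RPM in GSC lines (-2.31 ± 0.34, adjusted p = 0.0167). Of 13 tested immune receptor adaptors, 2 fell (Lat and Fcer1g) and 1 rose (Blnk), with a median of -0.09. Over all tested genes 0.451% fell, 0.312% rose and the median was 0.03. Lat and Ramp2 missed the threshold without the second library of GSCLC_4 (adjusted p = 0.0703 and 0.0597; 0.00144 to 0.278 over all alternatives). Rapgef3, a cAMP-activated exchange factor, averaged 4.94 ± 0.583 RPM in condition 1 lines and 24.3 ± 0.65 RPM in GSC lines, and Car6, a secreted carbonic anhydrase, 1.47 ± 0.197 RPM in condition 1 lines and 18.6 ± 2.61 RPM in GSC lines. Car6 reached the level for testing only in GSC libraries. Smaller falls among abundant genes were those of Cox8a, a subunit of cytochrome c oxidase, at 589 ± 27.2 RPM in condition 1 lines and 934 ± 43.8 RPM in GSC lines, and of Ctsd, a lysosomal protease, at 188 ± 3.67 RPM in condition 1 lines and 324 ± 13.3 RPM in GSC lines. Each was the 1 fall in its list, of 27 tested respiratory chain genes and 24 tested lysosomal genes, where 0.451% of all tested genes fell. Ypel5, Mtch1, a mitochondrial membrane protein, and Tmc6, a membrane channel-like protein, fell by 1.03, 0.85 and 1.41.

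Without the second library of GSC_2 the adjusted p was 0.0507 for Cox8a and Tmc6, 0.0529 for Ctsd and 0.0531 for Ypel5. Without the second of GSCLC_4 it was 0.0617 for Cox8a and Tmc6, 0.0632 for Ctsd and 0.0637 for Mtch1, and without the first of that line 0.0605 for Ctsd. Without the first library of GSCLC_1 it was 0.0663 for Cox8a, 0.0704 for Ctsd and 0.0822 for Tmc6, and without the second 0.0507 for Mtch1 and Tmc6. Without the first library of GSC_1 or of GSC_2 that of Mtch1 was 0.072 or 0.0526. Over all alternatives the adjusted p of these 5 genes ran from 0.00123 to 0.414.

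Pluripotency genes did not move together. Of 14 tested, 1 fell (Tcl1, described with the self-renewal genes) and none rose, where 0.451% of all tested genes fell and 0.312% rose. Pou5f1, the factor OCT4, had 8.56 and 6.15 RPM in GSCLC_1 and 4.76 and 7.92 RPM in GSCLC_4, against 35.5 and 15.9 RPM in GSC_1 and 28.1 and 28.1 RPM in GSC_2, and missed the threshold (-1.80 ± 0.37, adjusted p = 0.0571; 0.00476 to 0.474 over all alternatives). Sox2 lay on the other side, with 118 and 92.2 RPM in GSCLC_1 and 57.6 and 50.1 RPM in GSCLC_4, while the 4 GSC libraries held 30.3 to 37.9 RPM (1.14 ± 0.58, adjusted p = 0.42), and was higher in GSCLC_1 than in GSCLC_4 (adjusted p = 0.0117). Nanog reached at most 0.326 RPM in the 8 libraries, within the floor of 3 reads. Dnmt3l, with no more than 4.08 RPM, stayed below the level for testing. Dnmt3b, which deposits DNA methylation, averaged 57.5 ± 8.49 RPM in condition 1 lines and 57.1 ± 9.83 RPM in GSC lines (adjusted p = 0.988), and none of 17 tested DNA methylation genes passed.

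**Figure D4:**
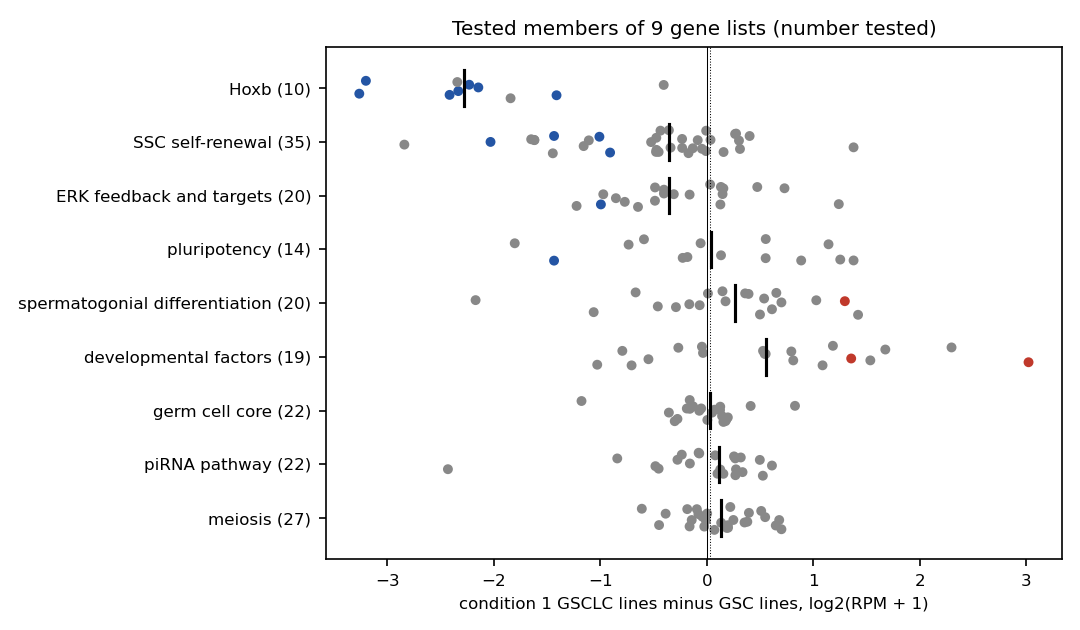
Differences of condition 1 GSCLC lines minus GSC lines, in log2(RPM + 1), for the tested members of 9 gene lists, 1 point per gene (red rose, blue fell, grey did not pass), with a bar at the list's median and a dotted line at the median of all tested genes. The Hoxb list sits at a median of -2.28 and the self-renewal list at -0.36, while germ cell core, piRNA and meiosis lists sit at 0.03 to 0.13.

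Over all 46 lists, 45 had a tested member and 17 had a member that passed. Of the 699 tested list genes, 10 rose and 19 fell, where 0.312% of all tested genes rose and 0.451% fell. At that share a short list with no call is near the background. Lists with no member passing included heat shock (23 tested), ribosomal proteins (35), G2 and M phase genes (24), glycolysis (24), cholesterol synthesis (26), p53 targets (19), Polycomb (29), TGF-beta and BMP signalling (20), the interferon response (12), hypoxia (16), the integrated stress response (18), X-linked cancer-testis genes (20) and heterochromatin genes (20).

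Markers of other testis cells were checked in the same libraries. The 10 spermatogonial markers summed to 2919 to 3339 RPM in condition 1 libraries and 2802 to 3223 RPM in GSC libraries. Of 9 Leydig cell markers, 6 were detected and Cyp17a1, Lhcgr and Nr5a1 were at 0 in all 8 libraries. Fdx1 alone was at 62 to 79.9 RPM in condition 1 libraries and 55.6 to 76 RPM in GSC libraries. With it the sums were 67.3 to 83.9 RPM in condition 1 libraries and 67.4 to 174 RPM in GSC libraries. For the 11 of 12 macrophage markers found by symbol, of which 10 were detected and C1qa was at 0, they were 9.77 to 16.3 RPM in condition 1 libraries and 21.1 to 33.9 RPM in GSC libraries. These sums did not overlap, but without Fcer1g they were 9.42 to 16.3 RPM in condition 1 libraries and 13 to 16.8 RPM in GSC libraries, and overlapped. Sertoli cell markers, with 14 of 15 detected and Amh at 0, summed to 318 to 408 RPM in condition 1 libraries and 382 to 555 RPM in GSC libraries. Most of this was Ctsl, at 235 to 277 RPM in condition 1 libraries and 249 to 347 RPM in GSC libraries. The sums for 16 markers of peritubular cells and fibroblasts were 504 to 734 RPM in condition 1 libraries. In GSC libraries they were 589 and 494 RPM in GSC_1 and 1017 and 1099 RPM in GSC_2, so only GSC_2 lay above the condition 1 libraries. Of the 13 tested, none passed and 12 had a difference below 0, with a median of -0.44 beside 0.03 over all tested genes. The sums for 8 endothelial markers were 46.8 to 62.6 RPM in condition 1 libraries and 52.2 to 62.6 RPM in GSC libraries. Egfl7 made up most of them, at 36.2 to 50.1 RPM in condition 1 libraries and 35.3 to 50.8 RPM in GSC libraries. The part of these cells in the differences above was not tested.

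A pair of steroidogenic genes followed culture replicates of the GSC lines. Cyp11a1, which begins steroid synthesis, was at 0, 0, 0.751 and 0 RPM in the condition 1 libraries, against 36.2 and 3.23 RPM in GSC_1 and 60.1 and 2.3 RPM in GSC_2. Hsd3b1, the next enzyme of the pathway, was listed at 0 in all 4 condition 1 libraries, against 34.2 and 2.8 RPM in GSC_1 and 36.7 and 3.83 RPM in GSC_2. In both genes the first library of each GSC line was high and the second low. Their adjusted p was 0.0134 each, but without the first library of GSC_1 it was 0.108 for both, without the first of GSC_2 0.142 for Cyp11a1 and 0.068 for Hsd3b1, and without both 0.287 for Cyp11a1 and 0.19 for Hsd3b1 (0.00283 to 0.403 over all alternatives). Aldh1a1, a retinaldehyde dehydrogenase singled out after its values were seen, had at most 0.501 RPM in condition 1 libraries, against 16.9 and 1.94 RPM in GSC_1 and 44.3 and 2.3 RPM in GSC_2. Fcer1g, a macrophage and mast cell receptor chain, was at 0.571, 0, 0 and 0 RPM in condition 1 libraries, against 10.1 and 4.31 RPM in GSC_1 and 11.8 and 18.9 RPM in GSC_2 (adjusted p = 0.0302). It missed the threshold without the first library of GSC_1, the second of GSCLC_1 or the second of GSCLC_4 (adjusted p = 0.0721, 0.0507 and 0.0597; 0.00112 to 0.4 over all alternatives). Over all genes, 26 rose and 37 fell when the first libraries of both GSC lines were left out.

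The temperature scheme gave no difference that passed. Between condition 1 and condition 2 lines 0 of 11542 genes passed in limma (0%), with 544 genes at an unadjusted p under 0.05, a smallest adjusted p of 0.928 and no gene under voom on the implied reads. With 2 lines on each side this does not show that the conditions act alike. Among the smallest unadjusted p of genes higher in condition 1 lines were those of Tex18, Barhl2, Bcar3, Pcdhgb6, Hmgb3 and Gng2, and of genes lower those of Cd109, Slc25a5, Gadd45gip1, Gm10175 and Cnih4. Cd109, a surface protein that binds TGF-beta, had 11.3 to 15.1 RPM in condition 1 libraries and 20.6 to 48.1 RPM in condition 2 libraries (-1.30 ± 0.26, unadjusted p = 0.000439). Slc25a5, a carrier of ADP and ATP in mitochondria, had 242 ± 45.8 RPM in condition 1 lines and 378 ± 18.8 RPM in condition 2 lines. Pcdhgb6, a protocadherin whose annotated 3′ end is shared with other genes, exceeded 1 RPM only in the second library of GSCLC_1 (21.4 RPM) and of GSCLC_4 (53.7 RPM) among these 8.

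Condition 2 lines entered no test against GSC lines here, which would use the same GSC lines again. Lhx1 averaged 26.8 ± 12.7 RPM in condition 1 lines, 34.3 ± 6.44 RPM in condition 2 lines and 106 ± 0.203 RPM in GSC lines. For Hoxb8 the means were 9.44 ± 4.2 RPM in condition 1 lines, 9.93 ± 0.853 RPM in condition 2 lines and 45.7 ± 1.65 RPM in GSC lines, and for Sfi1 187 ± 11.4 RPM in condition 1 lines, 209 ± 68.7 RPM in condition 2 lines and 22.6 ± 7.37 RPM in GSC lines. Among the 88 genes the smallest p between conditions belonged to Col2a1, Chrna4, Lat, Crabp2, Ypel5, Mtch1, Tmc6 and Car6. Col2a1 had 23.6 ± 9.44 RPM in condition 1 lines and 10.1 ± 0.948 RPM in condition 2 lines, and Crabp2 29 ± 1.11 RPM in condition 1 lines and 17.5 ± 0.0968 RPM in condition 2 lines. None of these passed.

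The condition 1 lines also differed from each other, by the spread of their culture replicates. In GSCLC_1 103 genes were higher than in GSCLC_4 (0.892%) and 183 were lower (1.59%). Of the 88 genes that set condition 1 lines apart from GSC lines, 3 were among them. Hoxb6 and Lhx1 were higher in GSCLC_1 than in GSCLC_4 by 1.54 and 0.97 (adjusted p = 0.0288 and 0.0127), and for Lamb1 the difference was -0.83 (adjusted p = 0.0365), while each lay on the same side of the GSC lines in both. These p-values rest on culture replicates and say nothing of other lines. With each library centred on its median the split was 165 higher and 124 lower.

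Among genes higher in GSCLC_4, Rhox5, a reproductive homeobox gene of the X chromosome, had 3.42 and 2.84 RPM in GSCLC_1 and 69.4 and 68.3 RPM in GSCLC_4 (-4.08 ± 0.41, adjusted p = 1.59e-05), beside 0.978 to 3.83 RPM in GSC libraries. Gsta3, a glutathione S-transferase, had 0.856 and 1.42 RPM in GSCLC_1 and 29.6 and 27.4 RPM in GSCLC_4, beside 8.42 to 12.4 RPM in GSC libraries (adjusted p = 7.35e-06). Erbb3, a receptor of the EGF receptor family, had 2.85 and 7.09 RPM in GSCLC_1 and 34.1 and 34.6 RPM in GSCLC_4, beside 19.4 to 38.5 RPM in GSC libraries (adjusted p = 0.000851). So Rhox5 stood apart from GSC lines in GSCLC_4, Erbb3 in GSCLC_1, and Gsta3 lay on opposite sides of the GSC libraries in the 2 lines. Phlda2, an imprinted growth suppressor of the placenta, Otx1, a homeobox factor, Gm9112, LOC100862013 and 4833442J19Rik were also higher in GSCLC_4, with differences of -1.66 to -2.91.

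Genes higher in GSCLC_1 included Gbp1, an interferon-induced GTPase, with 24 and 16.8 RPM in GSCLC_1, listed at 0 in both libraries of GSCLC_4, and at 22.2 to 29.1 RPM in GSC libraries (adjusted p = 7.9e-06). Trf, transferrin, had 48.2 and 34.3 RPM in GSCLC_1 and 13 and 11.9 RPM in GSCLC_4, beside 59.7 to 118 RPM in GSC libraries (adjusted p = 0.000542). In both genes GSCLC_4 was the line below the GSC libraries, and for Trf GSCLC_1 lay below them too. Gprc5c, an orphan receptor, Gbp3, Hist1h2ao, a histone whose 3′ end is shared with other copies, Ppm1j, a phosphatase, Pigk, an enzyme that attaches membrane anchors, and C1ql1, a secreted signalling protein, were higher by 1.58 to 2.12. Of the 16 genes named between the lines, Gbp1, Ppm1j, Trf, Rhox5, Gsta3 and Erbb3 passed whichever of the 4 libraries was left out. The counts moved widely: 6 genes were higher and 8 lower without the first library of GSCLC_1, 23 and 45 without its second, 37 and 26 without the first of GSCLC_4, and 242 and 127 without its second.

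Many of these genes lay together. Of the 183 genes lower in GSCLC_1 than in GSCLC_4, 65 were on chromosome 6, which holds 4.56% of the tested genes. Of the 103 higher, 25 were on chromosome 3, which holds 4.45% of them. In windows of 10 Mb along the chromosomes (GRCm38), the median difference of GSCLC_4 from the mean of the GSC lines lay between 0.47 and 0.68 in all 7 windows of chromosome 6 from 80 Mb on, and at -0.91 and -0.89 in the last 2 windows of chromosome 3, from 140 Mb on. These regions were chosen after the values were seen, so what follows is a description.

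Of 50 tested genes on chromosome 3 from 140 Mb on, 38 were lower in both libraries of GSCLC_4 than in all 4 GSC libraries (76%) and none was higher; for GSCLC_1 the numbers were 1 lower and 5 higher. Of 305 tested genes on chromosome 6 from 80 Mb on, 188 were higher in both libraries of GSCLC_4 than in all 4 GSC libraries (61.6%) and 4 were lower, against 51 higher and 33 lower for GSCLC_1. Outside both regions, 21.2% of tested genes were higher and 14.2% lower in GSCLC_4 by the same measure. For GSCLC_1 these shares were 15.3% and 16.3%. The median difference from the GSC mean was -0.89 in GSCLC_4 and -0.03 in GSCLC_1 for the chromosome 3 region, and 0.55 in GSCLC_4 and -0.01 in GSCLC_1 for the chromosome 6 region. Both libraries of GSCLC_4 showed it, at -0.74 and -0.84 on chromosome 3 and 0.55 and 0.59 on chromosome 6.

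Of the condition 2 lines, GSCLC_2 had medians of -0.93 and 0.46 in these regions and GSCLC_3 of -0.08 and -0.10. Gbp1, Gbp3 and Pigk lie in the chromosome 3 region, with GSCLC_4 and GSCLC_2 low in each. The same regions hold 19 of the 103 genes higher in GSCLC_1 and 59 of the 183 genes lower in it. Of the 88 genes that differed between condition 1 and GSC lines they hold 1, Dusp16, and of the 11542 tested genes 50 and 305. Without the genes of both regions, 59 genes were higher and 85 lower in condition 1 lines than in GSC lines, and 40 higher and 58 lower in GSCLC_1 than in GSCLC_4. What underlies the shifts was not tested.

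**Figure D5:**
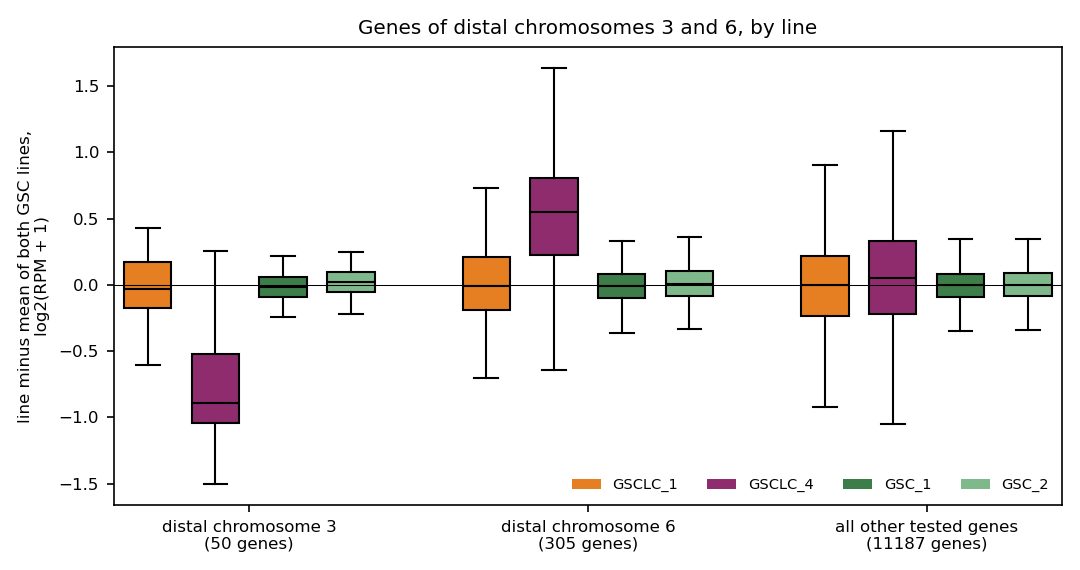
Difference of each line from the mean of both GSC lines, in log2(RPM + 1), for the 50 tested genes of chromosome 3 from 140 Mb on, the 305 of chromosome 6 from 80 Mb on and the 11187 other tested genes; boxes give the quartiles, lines inside them the median and whiskers the values within 1.5 box lengths. GSCLC_4 has medians of -0.89 and 0.55 in the 2 regions and GSCLC_1 of -0.03 and -0.01, and the GSC boxes are narrow because those lines are set against their own mean.

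By chromosome, the genes that fell in condition 1 lines gathered on chromosome 11, which held 17 of 52 (32.7%) and 8.14% of the tested genes. Of the 17, 7 are the Hoxb genes. The genes that rose included 6 of 36 on chromosome 12 (16.7%, beside 3.42% of the tested genes), among them Six4, Lamb1 and Odc1, the rate-limiting enzyme of polyamine synthesis. The X chromosome had a median difference of 0.18 between condition 1 and GSC lines, beside 0.03 over all tested genes.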

How the data were processed

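Transcripts were measured by SC3-seq, which sequences the 3′ ends of cDNA amplified from 1 ng of total RNA, on a SOLiD 5500XL instrument, per the labels' protocols. Each of the 12 libraries is 1 culture replicate of 1 line, and the labels call the 2 of a line biological replicates of the culture, so p-values between GSCLC_1 and GSCLC_4 measure the spread between cultures. The submitters' processing notes name cutadapt 1.3, TopHat 1.4.1, Cufflinks 2.2.0 and the mm10 (GRCm38) build; the sources used here give neither their roles nor whether counting used strand. The authors deposited RPM values without pooling replicates. Genes of the Y chromosome were left out here, and 26219 genes remained. From 99.7% to 99.8% of the values of a library lie within 0.1 of a whole multiple of its step.

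From these, log2(RPM + 1) was averaged over the 2 libraries of a line and fitted with limma 3.58.1 in R 4.3.3 over 6 lines in 3 groups, with a variance trend, keeping genes that reached 5 RPM in 2 or more of the 8 libraries. P-values are two-sided. GSCLC_1 and GSCLC_4 were compared in a fit of single libraries. The fits were tested on simulated data. Coordinates and promoter windows come from RefSeq tables of GRCm38.p6, and 362 tested genes had no chromosome there. A 3′ end was judged by the 50-base words of its last 300 bases. It was called shared where at least 50% of these occur in another gene's transcripts, on either strand.

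The genes, lists and markers were chosen with earlier results of these data known, and some lists may stem from those results. Named genes are the 12 with the largest change per direction that passed, reached 20 RPM and did not overlap, members of lists that passed (at most 6 a list), 8 that passed and had the smallest p between conditions, 6 per direction between conditions, 8 per direction between lines, and fixed germ cell and pluripotency genes; others were chosen after their values were seen. A few genes that the rule takes are not reported here. Alternatives covered pseudocount, filter, scaling, spread, replicates, libraries, lines and chromosomes. The test of voom on the implied reads, the fit without the first library of both GSC lines and that without distal chromosomes 3 and 6 were chosen after seeing the data.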

Additional observations from a re-analysis of the deposited data

Results flagged for a closer look

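In 4 of 90 groups of 4 libraries, 1 library lay far from the other 3, which is 4.44% where chance gives about 1 in 20. Cyp11a1 was at 0.751 RPM in the first library of GSCLC_4 and at 0 in the other condition 1 libraries. Fcer1g was at 0.571 RPM in the first library of GSCLC_1 and at 0 in the other condition 1 libraries. Both values rest on 3 reads or fewer, and any value beside 3 zeros would stand apart in the same way. Cox8a was at 645 RPM in the second library of GSCLC_1, and at 569 to 572 RPM in the other condition 1 libraries. Ramp2 was at 44.1 RPM in the second library of GSC_2, and at 27.3 to 29 RPM in the other GSC libraries.

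The difference from the GSC lines was itself unequal in the 2 condition 1 lines for 3 of the 45 named genes that passed, by the limma fit on single libraries. The GSC lines cancel in it, so this is the contrast of GSCLC_1 and GSCLC_4 given above. Over all tested genes that contrast called 0.892% higher and 1.59% lower in GSCLC_1. For Hoxb6 it was -2.43 in GSCLC_1 and -3.97 in GSCLC_4, which differ by 1.54 (adjusted p = 0.0288). For Lhx1 it was -1.54 in GSCLC_1 and -2.52 in GSCLC_4, which differ by 0.97 (adjusted p = 0.0127). For Lamb1 it was 0.91 in GSCLC_1 and 1.73 in GSCLC_4, a difference of -0.83 (adjusted p = 0.0365).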

How the results depend on the processing

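The counts of genes that passed between condition 1 and GSC lines (36 higher and 52 lower) moved by over 1.5 times with the model of the spread, the filter and the libraries used. They were 7 and 5 with no filter beyond RPM above 0, 16 and 28 with no variance trend, 125 and 173 in a fit over the 4 lines compared, 231 and 200 on single libraries with line as a correlated block, 165 and 163 with voom on the implied reads, 10 and 16 with replicate 1 of every line only, 26 and 23 with replicate 2 only, 52 and 86 without chromosomes 6, 8 and X, and 59 and 85 without distal chromosomes 3 and 6. Leaving out a library or line gave 3 to 56 higher and 0 to 85 lower. The causes were not tested. Between conditions 0 genes passed in each alternative, except 1 with replicate 2 only; leaving out libraries or lines gave 0 to 1. Between GSCLC_1 and GSCLC_4 (103 higher and 183 lower) the counts were 24 and 44 with no filter, 165 and 124 with median centring, 61 and 72 without chromosomes 6, 8 and X, 40 and 58 without the distal regions, and 6 to 242 and 8 to 127 when a library was left out.

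Culture replicate numbers did not pair the lines: the correlation of the differences between replicates ran from -0.125 to 0.114 over pairs of lines. The replicate block was added to the fit of single libraries with line as a correlated block, in which it gave 194 higher and 176 lower genes in condition 1 lines, against 231 and 200 without it, and 0 between conditions. With it the adjusted p was 0.113 for Bcl6b, 0.0614 for Egr2 and 0.0517 for Tmc6, and no other named call was lost. Between the condition 1 lines, with the block, 108 genes were higher and 187 lower in GSCLC_1.

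Signs turned only for genes that never passed. Leaving out a library or line gave -0.015 to 0.32 for Ddx4, -0.16 to 0.13 for Gfra1, -0.12 to 0.093 for Etv5, -0.92 to 0.017 for Nanos2, -0.0077 to 0.36 for Kit and -0.16 to 0.18 for Dnmt3b. With replicate 1 only, Gfra1 was at 0.060, Etv5 at 0.12 and Dnmt3b at -0.11. With replicate 2 only, Ret was at 0.039, Nanos2 at 0.10 and Kit at -0.016. With median centring Dnmt3b was at -0.023. Over all named genes and alternatives, 1405 values kept direction and side of the threshold, 376 kept direction but no longer passed, 10 newly passed and 28 turned. At these depths, levels under about 1 RPM rest on 3 reads or fewer.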
